A study of Rattus norvegicus with 12 samples.

Results

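The transcripts of 10 neuropeptide receptor genes were measured in rat hippocampal neuron cultures: the somatostatin receptors Sstr1, Sstr2, Sstr3 and Sstr4, the neuropeptide Y receptors Npy1r, Npy2r and Npy5r, the tachykinin receptors Tacr1 and Tacr3, and the neuromedin B receptor Nmbr. They were chosen by name, with earlier results of these data known. Their probes were those whose gene name in the array files was one of these symbols. The receptors made up 11 of the 41012 probes and 10 of the 35716 gene names measured. Npy1r had 2 probes and each of the others had 1. Dissociated neurons came from the hippocampi of Sprague-Dawley rat embryos at E18.5 of gestation, were plated at a high density of 330 cells per mm2, and were treated at 10 to 13 days in vitro for 48 h. The CTL group received vehicle, which the sample labels give as 0.1% DMSO and the study's text as water, the TTX group received the sodium channel blocker tetrodotoxin at 0.5 to 1 μM, which stops action potentials, and the BC group received the GABA-A receptor antagonist bicuculline at 20 μM, which induces burst firing. Each group had 4 RNA samples, each measured on its own 1-color Agilent array for the whole rat genome. The labels and the study's text do not tell whether the 4 samples were taken from 4 cultures, so the adjusted p-values cover only the differences among these samples, which may be technical.

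Neuropeptides are released mainly during sustained firing and act on G protein-coupled receptors, often at a distance from the release site. Somatostatin and neuropeptide Y receptors couple to Gi/o proteins, lower cyclic AMP and can open inwardly rectifying K+ channels, whereas the tachykinin and neuromedin B receptors couple to Gq and phospholipase C. In the hippocampus somatostatin and neuropeptide Y are made mostly by GABAergic interneurons, and their receptors on principal neurons and axon terminals dampen excitability and transmitter release. The bulk cultures mix these cell types, so fewer cells of a type and less RNA per cell cannot be told apart in any value given here.

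Between 74.1 and 78.1% of the probes on each array were well above background. The arrays lay on 4 slides, each with 1 array of each group, so that each treated array could also be compared with the CTL array beside it. In some alternative settings, slides 1 and 3 were grouped as a set and slides 2 and 4 as another. The sample labels do not record these slide sets. All levels are log2 of the scanner's processed signal after quantile normalization, and since probes differ in brightness, a level is compared only with the same probe on other arrays. A gene was called when the FDR (the p-value from limma, adjusted over all probes) was under 0.05 and the change was at least 1.5-fold, and its brightest probe stood for it.

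Of the 10 receptors, 9 were well above background on all 12 arrays, Npy2r was well above background on all CTL and TTX arrays and on 2 of 4 BC arrays, and no receptor spot was saturated. After TTX, Nmbr, Sstr1 and Sstr3 fell and no receptor rose, while after BC, Nmbr and Tacr3 rose and none fell. Over the whole table, 4.17% of genes were called in TTX against CTL (2.69% lower and 1.48% higher) and 3.6% in BC against CTL (2.14% higher and 1.47% lower), beside 3 and 2 of the 10 receptors. Between TTX and BC, 4 receptors, Nmbr, Sstr1, Tacr1 and Tacr3, were lower in TTX and none was higher. In that comparison 10.9% of all genes were called, 6.19% as lower in TTX and 4.68% as higher. By the FDR alone, without the fold threshold, 6 receptors passed in TTX against CTL, beside 9.71% of all genes, 3 passed in BC against CTL, beside 8.09%, and 5 passed between TTX and BC, beside 23.4%. The median log2 difference of the receptors was -0.42 in TTX against CTL (0.01 over all genes), -0.14 in BC against CTL (-0.01 over all genes) and -0.36 in TTX against BC (0.02 over all genes). The TTX and CTL arrays did not overlap for 8 of the 10 receptors, against 15.6% of all genes; BC and CTL did not overlap for 3, against 13.7%, and TTX and BC for 5, against 25.8%. Both treatments were compared with the same CTL arrays, so their differences share those 4 samples.

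**Figure D1:**
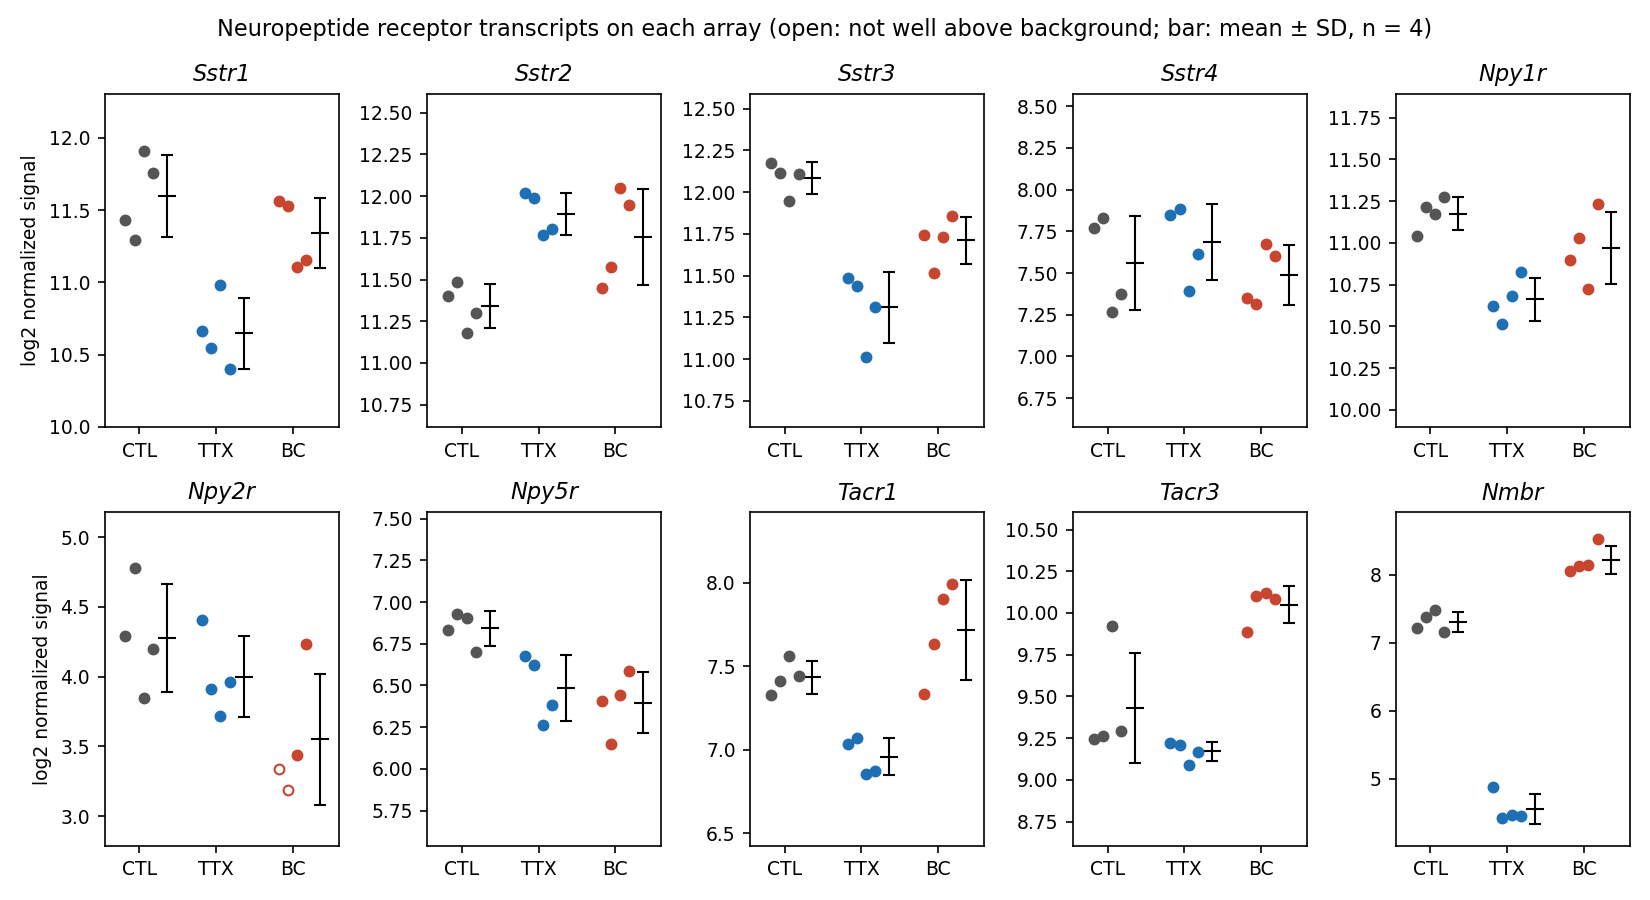
Log2 normalized signal of the brightest probe of each receptor on every array (y axis, with its own range in each panel) in CTL, TTX and BC, with the mean ± SD of 4 arrays as a bar. Nmbr and Sstr3 separated all 3 groups, Sstr4 and Npy2r separated none, and the open points are the 2 BC arrays on which Npy2r was not well above background.

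Nmbr encodes the Gq-coupled receptor that binds neuromedin B, a bombesin-like peptide, with high affinity. Its level was 7.22, 7.38, 7.48 and 7.16 in CTL replicates 1 to 4, 4.89, 4.42, 4.47 and 4.46 in TTX replicates 1 to 4, and 8.05, 8.13, 8.15 and 8.52 in BC replicates 1 to 4. The groups followed the order TTX, CTL, BC with no overlap between any of them. Nmbr fell 6.72-fold after TTX (log2 difference -2.75 ± 0.13 SE, FDR = 2.11e-06) and rose 1.87-fold after BC (0.90 ± 0.13 SE, FDR = 0.0020), which put TTX 12.6-fold below BC (FDR = 5.73e-08). These were the largest differences among the receptors in each of the 3 comparisons. The TTX levels remained above the dimmest signals counted as well above background on those arrays, which lay at 3.50 to 3.76. The size of the fall rested on how background was treated: with normexp background correction the log2 difference was -1.37 (FDR = 9.72e-07) and with no background correction -1.53 (FDR = 6.86e-07), while TTX against BC gave -2.09 and -2.28, and all of these passed.

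Since the whole Nmbr result comes from 1 probe of 60 bases, its sequence is given here as listed in the array files, together with its position in rat build rn4 (chr1:9626879-9626938, plus strand).
Nmbr probe: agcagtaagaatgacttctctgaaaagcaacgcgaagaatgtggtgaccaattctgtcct

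The tachykinin receptors also stood lower in TTX than in BC. Tacr1 encodes the receptor preferred by substance P, and its level was 7.33, 7.41, 7.56 and 7.44 in CTL, 7.03, 7.07, 6.86 and 6.88 in TTX, and 7.33, 7.63, 7.90 and 7.99 in BC. All TTX arrays were below all others, whereas BC overlapped CTL. Tacr1 was 1.69-fold lower in TTX than in BC (log2 difference -0.76 ± 0.13 SE, FDR = 0.0017). Against CTL, the TTX difference of -0.48 ± 0.13 SE passed the FDR (0.046) at 1.39-fold, short of the fold threshold, and the BC difference was 0.28 ± 0.13 SE (FDR = 0.28). The call between TTX and BC was lost in 5 of 28 alternative settings. The difference was under 1.5-fold with normexp (-0.54), with no background correction (-0.57) and in the deposited log2 values (-0.57). It missed the FDR with averaged slide sets (0.0661) and in a 2-group fit with the replicate block.

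Tacr3 encodes the receptor preferred by neurokinin B. Its level was 9.24, 9.26, 9.92 and 9.29 in CTL, 9.22, 9.21, 9.09 and 9.17 in TTX, and 9.88, 10.10, 10.12 and 10.08 in BC. CTL replicate 3 stood apart from the other CTL arrays and overlapped BC, while the TTX arrays lay close together just below CTL. Tacr3 was 1.84-fold lower in TTX than in BC (-0.88 ± 0.14 SE, FDR = 0.00089), a call that held in 28 of 28 alternative settings. It rose 1.54-fold after BC (0.62 ± 0.14 SE, FDR = 0.0194), and the difference after TTX was -0.26 ± 0.14 SE (FDR = 0.323). The rise after BC was lost in 12 of the 28 settings, 6 of them leaving out CTL replicate 1, 2 or 4 or BC replicate 2, 3 or 4 (FDR from 0.0524 to 0.061). It fell under 1.5-fold with normexp or no background correction (0.57 in both), and missed the FDR with a random block for slide sets (0.11) and with only CTL and BC in the fit (0.0742). Without CTL replicate 3 the difference was 0.78.

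Among the somatostatin receptors, Sstr1 and Sstr3 fell after TTX and the others did not pass the thresholds. Sstr1 was at 11.43, 11.30, 11.91 and 11.76 in CTL, 10.67, 10.54, 10.98 and 10.40 in TTX, and 11.57, 11.53, 11.10 and 11.16 in BC. Every TTX array was below every CTL and BC array. Sstr1 fell 1.94-fold after TTX (-0.95 ± 0.17 SE, FDR = 0.0061) and was 1.62-fold lower in TTX than in BC (-0.69 ± 0.17 SE, FDR = 0.0139). In BC it differed from CTL by -0.26 ± 0.17 SE (FDR = 0.504; 95% interval -0.64 to 0.12).

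Sstr3, whose receptor is known for its place in neuronal primary cilia, was at 12.17, 12.11, 11.95 and 12.11 in CTL, 11.48, 11.44, 11.01 and 11.31 in TTX, and 11.74, 11.52, 11.73 and 11.86 in BC. CTL was highest, BC intermediate and TTX lowest, with no overlap between the groups. Sstr3 fell 1.71-fold after TTX (-0.77 ± 0.11 SE, FDR = 0.0015). The BC difference of -0.37 ± 0.11 SE did not pass (FDR = 0.0688), and TTX lay below BC by 0.40 log2 units at 1.32-fold (FDR = 0.0226), short of the fold threshold. The falls of Sstr1 and Sstr3 after TTX missed the FDR threshold only when each group's arrays were averaged within sets of slides (FDR = 0.0679 and 0.0546).

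Sstr2 and Sstr4 showed no called change. Sstr2, a receptor whose activation inhibits principal neurons, was at 11.40, 11.49, 11.18 and 11.30 in CTL, 12.02, 11.99, 11.77 and 11.80 in TTX, and 11.45, 11.58, 12.05 and 11.95 in BC. It was the only one of the 10 receptors with every TTX array above every CTL array, and its difference of 0.55 ± 0.13 SE passed the FDR (0.0262) at 1.47-fold, just under the fold threshold, which it passed without CTL replicate 2 (0.60) or without TTX replicate 3 (0.59). BC exceeded CTL by 0.41 ± 0.13 SE (FDR = 0.0967). Sstr4 was at 7.77, 7.83, 7.27 and 7.37 in CTL, 7.85, 7.88, 7.39 and 7.61 in TTX, and 7.35, 7.31, 7.67 and 7.60 in BC, and all groups overlapped. The 95% interval of its log2 difference ran from -0.23 to 0.47 after TTX and from -0.42 to 0.27 after BC, so a change of 1.5-fold or more lay outside both intervals.

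No neuropeptide Y receptor was called in any comparison. Npy1r, the gene of a mainly postsynaptic receptor, was measured by a pair of probes at separate places in the gene (rn4, minus strand, chr16:24747554-24747613 and chr16:24748869-24748928). On the brighter probe it was at 11.04, 11.21, 11.17 and 11.28 in CTL, 10.62, 10.51, 10.68 and 10.82 in TTX, and 10.90, 11.03, 10.72 and 11.23 in BC. TTX lay below CTL without overlap on both probes, by 0.51 and 0.53 log2 units (FDR = 0.0135 and 0.0254), or 1.43-fold and 1.45-fold, which did not reach the fold threshold. BC differed from CTL by -0.21 ± 0.11 SE and -0.31 ± 0.13 SE (FDR = 0.364 and 0.213). The sequence of the dimmer probe is shown because it is the second, separate reading of this transcript.
Npy1r probe: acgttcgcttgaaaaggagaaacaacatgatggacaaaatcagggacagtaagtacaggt

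Npy5r, the gene of a receptor known for its role in feeding, lies beside Npy1r on chromosome 16 in the opposite orientation, with the starts that RefSeq promoters were taken from 8668 bases apart in assembly GRCr8. Npy5r was at 6.83, 6.93, 6.90 and 6.70 in CTL, 6.67, 6.62, 6.26 and 6.38 in TTX, and 6.41, 6.15, 6.45 and 6.59 in BC. Both treated groups lay below CTL without overlap, by 0.44 log2 units in BC (FDR = 0.0395, at 1.36-fold under the fold threshold) and by 0.36 in TTX (FDR = 0.0835). Npy2r, the gene of a receptor that acts mainly on axon terminals, was the only receptor gene not well above background throughout, at 4.29, 4.78, 3.85 and 4.20 in CTL, 4.40, 3.91, 3.72 and 3.96 in TTX, and 3.34, 3.19, 3.44 and 4.23 in BC. BC replicates 1 and 2 were not well above background, and BC replicate 4 overlapped CTL. The differences from CTL were -0.73 ± 0.26 SE in BC (FDR = 0.126) and -0.28 ± 0.26 SE in TTX (FDR = 0.618). Npy2r was called as lower in BC with the slide as a block (FDR = 0.0050), with the slide set as a block (0.0299), with scaling to the 75th percentile (0.0385) and without BC replicate 4 (-0.96, FDR = 0.0301).

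**Figure D2:**
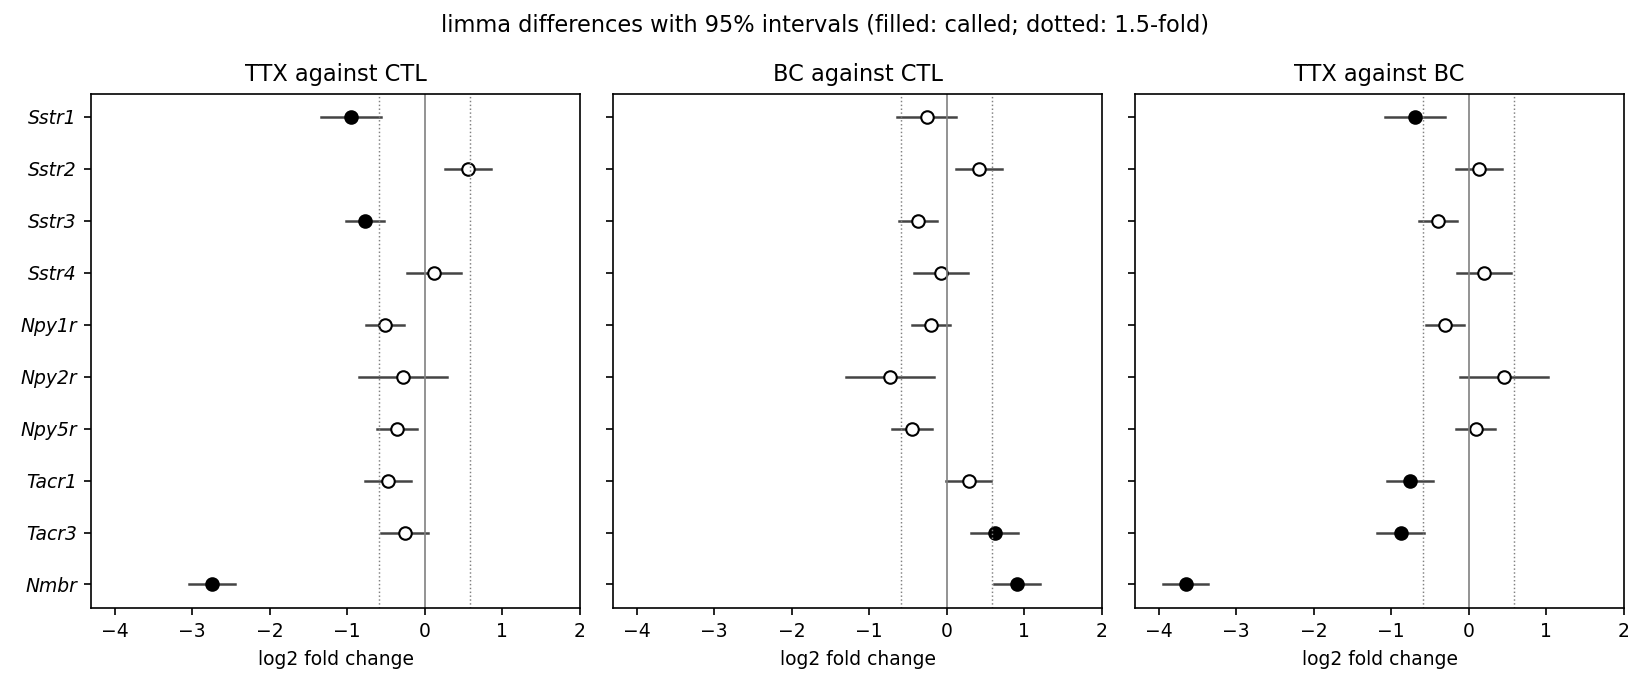
Log2 fold change of each receptor (points, brightest probe) with its 95% interval (lines) in the comparison of TTX with CTL, of BC with CTL and of TTX with BC; filled points were called and dotted lines mark 1.5-fold. Nmbr lies apart at -2.75 and -3.65 in the comparisons that hold TTX, and its rise after BC, at 0.90, is the highest point. The differences of the other receptors lie between -0.95 and 0.62.

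Within slides, where the treated and CTL arrays were hybridized and scanned together, the called differences kept their sign on all 4 slides. For groups without overlap this had to be so under any pairing, so the signs are no further check on them. Among the called differences, only Tacr3 in BC against CTL came from overlapping groups. Nmbr differed from the CTL array of its slide by -3.02 to -2.49 in TTX and by 0.65 to 1.14 in BC. Sstr1 differed by -1.51 to -0.63 and Sstr3 by -1.10 to -0.63 in TTX. Tacr3 exceeded CTL by 0.18 to 0.88 in BC, with the smallest value on the slide of CTL replicate 3, and Tacr1 and Tacr3 were lower in TTX than in BC by 0.48 to 0.96 and 0.79 to 0.94. Among differences that were not called, Npy2r was lower in BC than in CTL on all 4 slides, by 0.55 to 0.86, and Npy5r was lower than CTL on all 4 under both treatments. In BC, Sstr1 (-0.38 to -0.14), Sstr3 (-0.44 to -0.25) and the dimmer Npy1r probe were also below CTL on all 4. In TTX, so were Tacr1 (-0.69 to -0.25), Tacr3 (-0.75 to -0.04) and both Npy1r probes. In the other direction, Sstr2 exceeded CTL on all 4 slides under both treatments, by 0.47 to 0.62 in TTX and 0.15 to 0.65 in BC, and Sstr4 did so in TTX, by 0.02 to 0.34.

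**Figure D3:**
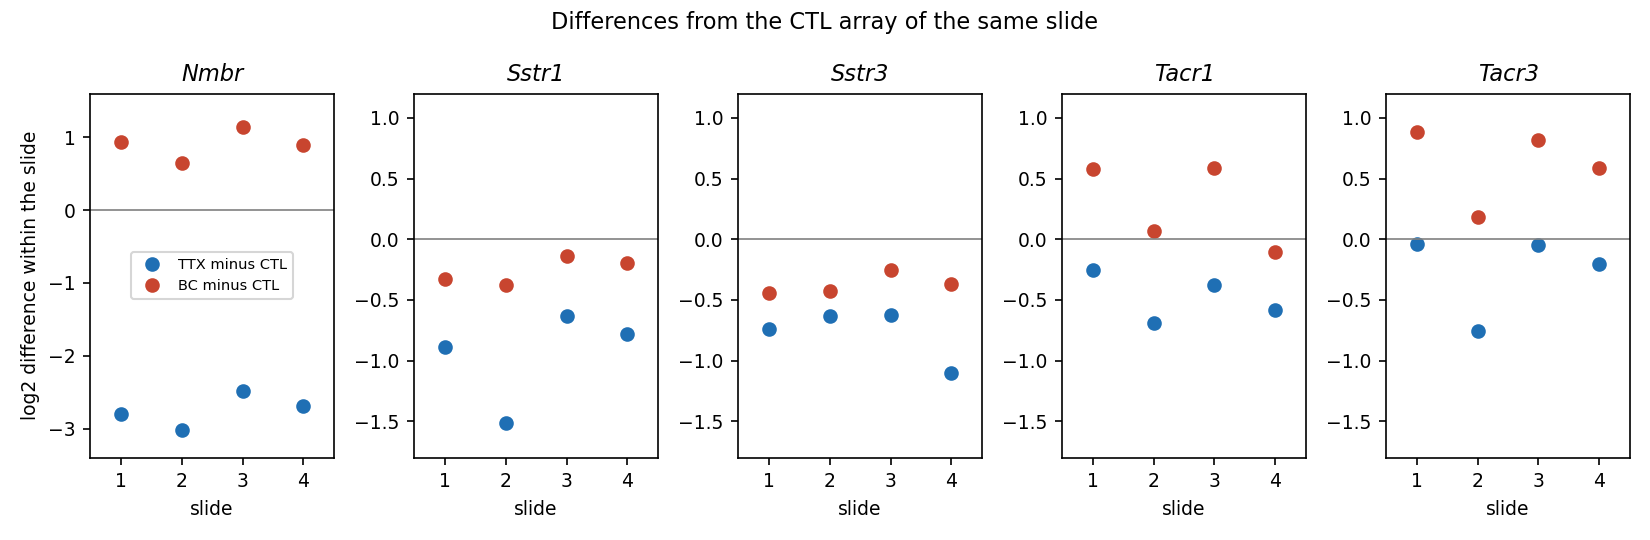
Log2 difference between the TTX or BC array and the CTL array of the same slide (y axis; Nmbr has a wider range) for the 5 receptors called in at least 1 comparison, by slide (x axis). TTX points of all 5 receptors and BC points of Sstr1 and Sstr3 lie below 0 on all 4 slides. BC points of Nmbr and Tacr3 lie above 0 on all 4, and those of Tacr1 lie on both sides of 0.

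Of the 10 genes that encode the peptides binding these receptors, 9 were found on the array, and the gene of neuromedin B was not analysed here. In TTX, 4 ligand genes fell, Cort (cortistatin, a somatostatin-like peptide), Tac1 (substance P and neurokinin A), Sst (somatostatin) and Npy (neuropeptide Y), and none rose. Sst, which encodes the ligand of the somatostatin receptors, was at 17.12 to 17.40 in CTL, 15.54 to 15.60 in TTX and 17.16 to 17.57 in BC. It fell by 1.69 log2 units after TTX (FDR = 4.47e-06) and differed by 0.06 after BC (FDR = 0.863). Npy was at 16.65 to 16.96 in CTL, 15.32 to 15.47 in TTX and 17.56 to 17.66 in BC, with log2 differences from CTL of -1.40 (FDR = 2.71e-06) and 0.80 (FDR = 0.00013). These groups did not overlap, whereas none of the neuropeptide Y receptors was called.

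Cort changed by -3.95 after TTX (FDR = 1.77e-07) and 1.19 after BC (FDR = 0.00053), and Tac1 by -1.95 (FDR = 8.92e-08) and 0.42 (FDR = 0.0014, under 1.5-fold). In BC, Npy and Cort rose and Pyy, the gene of peptide YY, fell (-0.98 ± 0.22 SE, FDR = 0.018). Tac3, which encodes neurokinin B, the ligand of the receptor made from Tacr3, differed from CTL by -0.21 in TTX and by less than 0.001 in BC, and was at 8.82 to 8.91 in CTL and 8.73 to 9.03 in BC. Grp, the gene of gastrin-releasing peptide, differed from CTL by 0.13 in TTX (FDR = 0.203) and by -0.39 in BC (FDR = 0.0019, under 1.5-fold). It was 0.52 higher in TTX than in BC (FDR = 7.21e-05, also under 1.5-fold). Tac4 was not called, and Ppy was well above background on 1 of 12 arrays.

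Of 47 other neuropeptide receptor genes, 45 were found on the array, 31 were well above background on all 12 arrays and 5 on none. In TTX 3 of the 45 rose and 3 fell (median log2 difference -0.04), and in BC 2 rose and 4 fell (median -0.08). Cckbr, a cholecystokinin receptor gene, changed like Nmbr in direction, by -1.95 in TTX (FDR = 4.87e-05) and 0.77 in BC (FDR = 0.014). Cckar, the gene of the other cholecystokinin receptor, went the opposite way, by 0.87 in TTX (FDR = 0.0035) and -1.40 in BC (FDR = 0.00025). The other called genes in TTX were Crhr1 (corticotropin-releasing hormone receptor, -1.37), Oxtr (oxytocin receptor, -0.94, well above background on 11 of 12 arrays), Adcyap1r1 (PACAP receptor, 0.72) and Oprl1 (nociceptin receptor, 0.71). In BC, Mc4r (a melanocortin receptor, FDR = 0.0018), Avpr1b (a vasopressin receptor, -0.94) and Tacr2 fell and Rxfp1 (a relaxin receptor, 0.80) rose. Tacr2, the third tachykinin receptor gene, fell by 0.72 in BC (FDR = 0.00062), whereas Tacr3 rose, and it was 0.92 higher in TTX than in BC (FDR = 2.95e-05), whereas Tacr1 and Tacr3 were lower. Between TTX and BC, 5 of the 45 were lower in TTX and 5 were higher, with Cckbr at -2.71 and Cckar at 2.27.

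**Figure D4:**
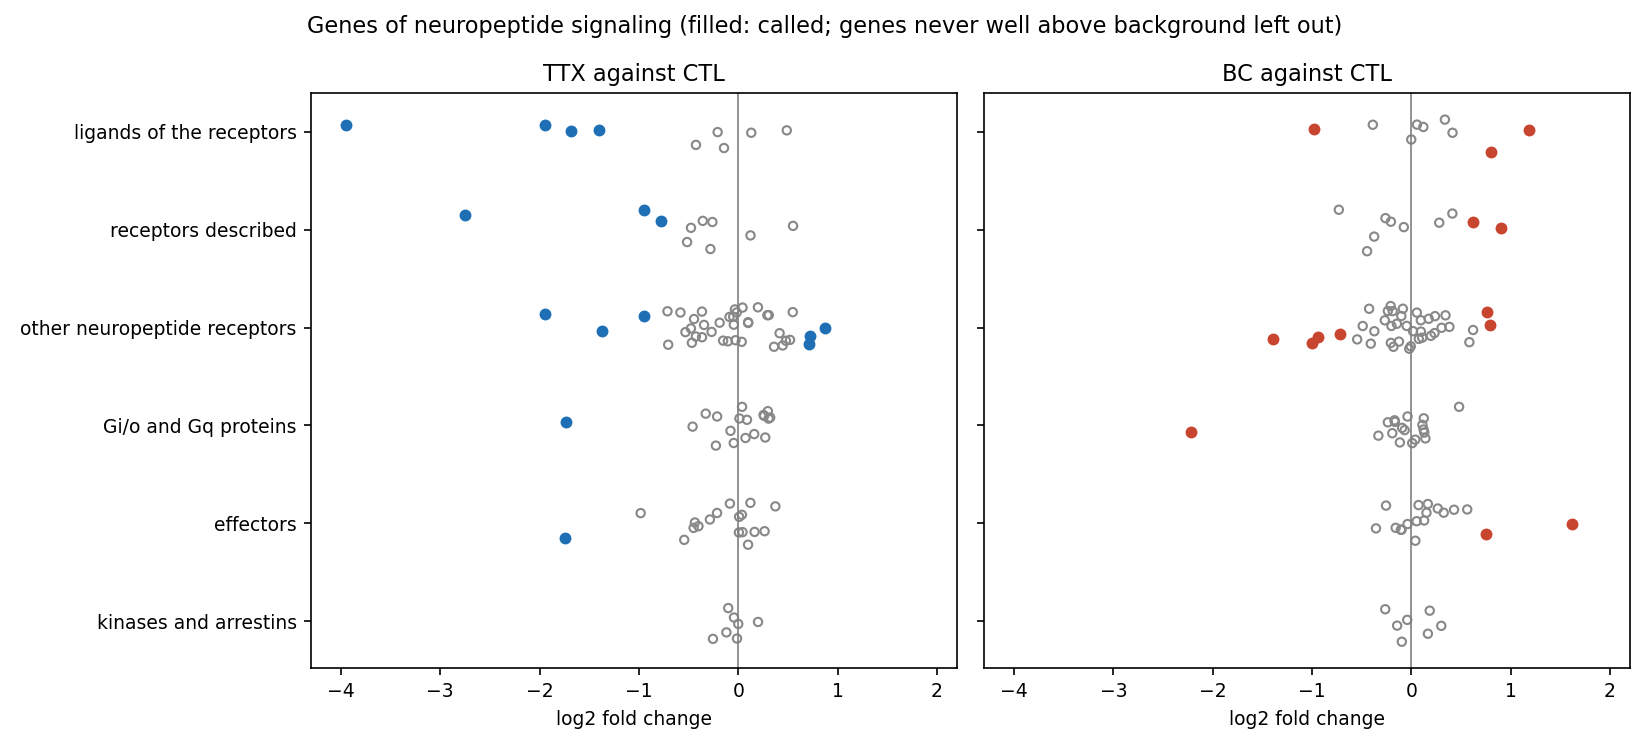
Log2 fold change (x axis) of the genes of each list (rows) in TTX against CTL and BC against CTL; each point is 1 gene, filled if called, and its height within a row carries no meaning. Called ligand genes lie below 0 in TTX and on both sides of 0 in BC, and no receptor kinase or arrestin is filled.

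Downstream of the receptors, 18 genes of Gi/o and Gq proteins were measured, and 1 was called in each comparison with CTL. Gna14, a Gq-family alpha subunit, fell by 1.73 in TTX (FDR = 2.19e-06), with a log2 difference of -1.71 on its other probe, and Gna15, of the same family, fell by 2.22 in BC (FDR = 7.55e-05). Of 19 effector genes, 1 fell in TTX, and in BC 2 rose and none fell. The dimmer probe of a further effector gene, Itpr3, also passed both thresholds as lower in TTX than in CTL (-0.86, FDR = 0.0151). Its brightest probe, which stood for it, did not (-0.44, FDR = 0.0999). Adcy8, a calcium-stimulated adenylyl cyclase, differed from CTL by -1.75 in TTX (FDR = 1.81e-05) and 0.75 in BC (FDR = 0.0035). Kcnj5, an inwardly rectifying K+ channel subunit opened by G proteins, rose in BC (1.62, FDR = 0.0213), but was well above background on 1 of 4 CTL arrays and on no TTX array. Between TTX and BC, 6 of the 19 effector genes were lower in TTX and none was higher, among them Adcy8 (-2.50), Adcy1, another calcium-stimulated adenylyl cyclase (-0.81), and Kcnj5, which was at least 2.28-fold lower in TTX, a lower bound since no TTX array had it well above background. None of the 7 receptor kinase and arrestin genes was called by limma in either comparison with CTL, and 0 in TTX and 2 in BC had an unadjusted p under 0.05.

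Some markers of cell types also differed between the groups, and others did not. The general neuronal marker Rbfox3 differed by -0.15 in TTX and -0.01 in BC and the astrocyte marker Gfap by less than 0.001 and by -0.06, none of them called. Of 16 GABAergic interneuron markers, 8 fell and 1 rose in TTX (median log2 difference -0.65), and 2 rose and 1 fell in BC (median 0.12). Gad1, which encodes a GABA-synthesizing enzyme, differed by -1.56 in TTX (FDR = 8.13e-07) and 0.22 in BC. The summed linear signal of the 16 markers, of which Sst and Npy are also ligand genes, ranged over 365700 to 423960 in CTL, 183620 to 207390 in TTX and 472410 to 556070 in BC. Without those genes the sum over the other 14 was 113640 to 129920 in CTL, 95009 to 113120 in TTX and 123290 to 154050 in BC. Of 8 glutamatergic markers, 2 rose in TTX and 2 fell in BC, and their sums were 55541 to 64598 in CTL, 70045 to 77949 in TTX and 45088 to 52000 in BC, with the vesicular glutamate transporter gene Slc17a7 at 0.18 and -0.29. Of 12 endothelial, mural and fibroblast markers, 3 fell in TTX and 3 rose in BC, with sums of 11953 to 14849 in CTL, 8740 to 10115 in TTX and 19446 to 26240 in BC and Pecam1 well above background on no array. No astrocyte or microglia marker was called by limma, with 1 marker of each list at an unadjusted p under 0.05 in TTX and 0 and 1 in BC. These passed the FDR and missed only the fold threshold. They were the astrocyte marker Aldh1l1 in TTX (0.45, FDR = 0.0261) and the microglia marker Cd68 in TTX (-0.51, FDR = 0.0137) and BC (-0.43, FDR = 0.0371). Aif1 and Itgam were well above background on no array. Of 10 oligodendrocyte markers 1 rose and 1 fell in TTX and none was called in BC. The part of these markers in the receptor differences was not tested.

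The promoters of all 10 receptor genes were read from the RefSeq promoter table of assembly GRCr8, which covers 250 bases before and 50 after 1 annotated start per gene, because several activity-regulated transcription factors bind short known motifs there. That start was the outer end of the annotated gene for 6 of the receptors and lay inside it for the other 4, by 246 bases for Sstr1, 683 for Npy1r, 7186 for Npy2r and 12508 for Nmbr, and sequence at the outer ends of those 4 was not searched. The cyclic AMP response element TGACGTCA, searched on both strands, was found in Sstr2 alone, at position -73 from its start, and in 1.83% of all 33469 promoters. Its shorter form TGACG, also searched as CGTCA, overlaps the full element and was found in Sstr1, Sstr2, Npy1r, Tacr1 and Tacr3, and in 21.2% of all promoters. The AP-1 motif TGANTCA was found in Npy2r (7.33% of all promoters), and the EGR motif GCGNGGGCG in none of the 10 (4.98%). Nmbr, Sstr3, Sstr4 and Npy5r held none of these letters in this window. A match is a description of the sequence. For the shorter form, called and uncalled genes stood on both sides of it. The full element and the AP-1 motif each lay in 1 receptor gene, Sstr2 and Npy2r, neither of them called. The promoters of Nmbr (chr1:10954734-10955033, plus strand), which changed most and had no match at this internal start, of Sstr2 (chr10:99163103-99163402, plus strand), with the only full element, and of Tacr3 (chr2:225940247-225940546, plus strand), with 2 copies of the shorter form, are shown 5′ to 3′ with the matches in capitals.
Nmbr promoter: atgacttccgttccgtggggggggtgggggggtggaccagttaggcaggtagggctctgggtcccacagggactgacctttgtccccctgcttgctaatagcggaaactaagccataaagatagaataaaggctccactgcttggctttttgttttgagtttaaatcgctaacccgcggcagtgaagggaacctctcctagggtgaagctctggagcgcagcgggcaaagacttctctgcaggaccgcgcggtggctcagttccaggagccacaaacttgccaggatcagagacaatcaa
Sstr2 promoter: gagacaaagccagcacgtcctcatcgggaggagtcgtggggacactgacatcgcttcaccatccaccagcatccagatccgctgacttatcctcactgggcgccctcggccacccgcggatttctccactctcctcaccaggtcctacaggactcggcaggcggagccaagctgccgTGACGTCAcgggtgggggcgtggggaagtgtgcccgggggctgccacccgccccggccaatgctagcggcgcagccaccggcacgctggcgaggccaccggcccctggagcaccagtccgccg
Tacr3 promoter: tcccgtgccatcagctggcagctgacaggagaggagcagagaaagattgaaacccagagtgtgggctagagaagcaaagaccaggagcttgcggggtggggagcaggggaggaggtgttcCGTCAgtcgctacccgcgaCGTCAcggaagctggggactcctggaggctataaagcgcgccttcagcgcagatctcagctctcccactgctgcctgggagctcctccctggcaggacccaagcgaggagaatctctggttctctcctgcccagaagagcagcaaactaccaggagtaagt

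For each of the 5 receptors called in at least 1 comparison, the 3 genes with the most similar pattern were found by Pearson's r over the 12 arrays, among 11441 genes well above background on all of them. The arrays share 3 group means, so r mostly describes the order of the groups. For Nmbr these were Cort, Mustn1 and Crhbp, each at r = 0.995, with log2 differences of -3.95, -3.85 and -4.49 in TTX and 1.19, 1.50 and 1.06 in BC. For Sstr3 they were Col6a1 (r = 0.955), Rnf138l1 (0.955) and Slc30a3 (0.947), all of which fell in TTX. For Sstr1 they were Slc50a1 (0.968), Vegfc (0.957) and Sat1 (0.943), for Tacr1 Bcl10 (0.973), Ptpre (0.966) and Hspb6 (0.966), and for Tacr3 Scpep1 (0.979), Cyp26b1 (0.974) and Oat (0.962). Slc50a1, Vegfc and Sat1 were called in no comparison (-0.44, -0.31 and -0.32 in TTX against CTL), and neither were Bcl10, Ptpre, Scpep1 and Oat. Hspb6 was called in all 3 comparisons and Cyp26b1 only between TTX and BC.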

How the data were processed

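The 12 RNA samples (4 each of CTL, TTX and BC) were measured on one-color Agilent arrays. For every spot the authors deposited scanner intensities, from which Feature Extraction 9.5.1.1 had subtracted background and a spatial trend, and they also deposited quantile-normalized log2 values (column medians 7.372 to 7.378). The array design placed probes on build rn4. Here the processed intensities were taken to log2 and quantile-normalized, the 13 to 40 outlier spots of each array were dropped, and a mean for each group was fitted over the 12 arrays in limma 3.58.1 (R 4.3.3), with moderated variances (eBayes) and p-values adjusted over all probes by the Benjamini-Hochberg method. The fit was also run on simulated data with independent noise on each array. That run does not cover variation shared by the arrays of a slide. Tables and figures used Python 3.11.15 with pandas 2.3.3, numpy 2.4.6 and matplotlib 3.10.9. Precision is limited by the small number of arrays.

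The receptors and gene lists were chosen with earlier results of these data known. RefSeq gave the gene names of probes (10813 by accession, 5133 by symbol and 3455 by synonym), and 21611 kept the name in the files. The text names all receptors and their ligand genes, and all called genes of the other pathway lists in the comparisons with CTL. Between TTX and BC it names only some of the called genes of those lists, not always those with the largest changes. It also names the markers Rbfox3, Slc17a7, Gad1 and Gfap, and for each called receptor the 3 genes with the highest Pearson's r. Aldh1l1 and Cd68 were named because they passed the FDR alone. Markers named for lacking a signal were chosen after their values were seen.

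Pairing by replicate number was checked on deviations from the group means. Arrays of the same number correlated with r from 0.281 to 0.379 in TTX and CTL. The range was -0.347 to -0.244 in BC and CTL and -0.376 to -0.283 in TTX and BC. TTX and CTL arrays of the same number shared a slide set, whereas the BC array of that number lay on the other set. Pairing by number could therefore not be told apart from the slide sets. Arrays of the same slide correlated with r from 0.341 to 0.41, from 0.307 to 0.336 and from 0.249 to 0.384 in the same order. Each slide lies within a slide set, so these values do not separate pairing by slide from the slide sets. The main fit used no block. Alternatives were normexp (offset 50) or no background correction, scaling to the 75th percentile, the deposited log2 values, leaving out dim probes, keeping outlier spots, blocks for slide, slide set or replicate number, averaged slide sets, fits of 2 groups, a trended robust eBayes, no fold threshold, the mean over the probes of a gene, and leave-one-out over the arrays. Fits of 2 groups with the replicate block were added after seeing the data.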

Additional observations from a re-analysis of the deposited data

Results flagged for a closer look

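In 3 of the 33 groups of 4 arrays checked over the receptor probes, 1 array lay far from the other 3, measured as its gap to the nearest of them divided by the group's whole range. Chance gives such a group in about 1 of 20. For Nmbr in TTX the value was 0.897, with replicate 1 at 4.89 above the others, and without it the log2 difference from CTL was -2.86. For Tacr3 the value was 0.923 in CTL, where replicate 3 stood at 9.92, and 0.844 in BC, where replicate 1 stood at 9.88.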

How the results depend on the processing

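Over 28 alternative settings, the 33 differences of the receptor probes gave 921 values, of which 886 kept direction and side of the thresholds, 22 lost a call, 12 gained one and 1 changed sign (Sstr4 in BC against CTL, 0.014 without CTL replicate 2, in a leave-one-out range of -0.17 to 0.014). Nmbr in TTX against CTL and TTX against BC and Tacr3 in TTX against BC were called in all 28 settings. In TTX against CTL the number of receptors called was 1 with averaged slide sets, 6 with no fold threshold and 3 to 4 leaving out 1 array. In BC against CTL it was 1 with normexp, with median signal and no background correction, with a random block and with only the 2 groups compared, 0 with averaged slide sets and with the replicate block and only 2 groups (Nmbr at FDR = 0.0958), 3 with slide or slide set as a block and with the 75th percentile, where Npy2r was called as lower, 3 with no fold threshold, and 1 to 2 leaving out 1 array. In TTX against BC it was 3 with normexp, with median signal, in the deposited values and with averaged slide sets. It was 5 with no fold threshold, 4 leaving out any array, and 2 with the replicate block and only 2 groups. In that 2-group fit Sstr1 and Tacr1 missed the FDR (0.0884 and 0.0742). The replicate block over all 3 groups left 3, 2 and 4 receptors called in TTX against CTL, in BC against CTL and between TTX and BC, and it changed no receptor call. In the same order of comparisons, genes called over the whole table numbered 777, 665 and 2219 with normexp, 833, 728 and 2351 with median signal, 824, 729 and 2338 in the deposited values, and 3469, 2890 and 8353 with no fold threshold. With averaged slide sets they numbered 438 and 0 in the comparisons with CTL, so no receptor could pass in BC (Nmbr 0.90 ± 0.091 SE, FDR = 0.0738), and in BC against CTL 217 with the replicate block and only 2 groups. Leaving out 1 array gave 1234 to 1556, 1061 to 1346 and 3599 to 3883. The causes were not tested, except that averaging leaves 2 values per group. Signal over background limits Npy2r and, in TTX, Nmbr.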
